A study of Mus musculus with 9 samples.

Results

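The Schlafen family of mouse genes was followed in neutrophils that had been kept with mammary tumour cells or alone. The 7 genes Slfn1, Slfn2, Slfn3, Slfn4, Slfn5, Slfn8 and Slfn9 were taken by symbol from a table of 54532 Ensembl genes, 11 of which carry a symbol that starts with Slfn. Their values were measured by bulk RNA sequencing in 9 libraries, 3 for each of 3 groups. The first group was neutrophils kept with PyMT-N cells, the second was neutrophils kept with PyMT-M cells, and the third was neutrophils kept alone, each for 12 h with fetal bovine serum at 0.5%. The labels name DMEM as the medium of both co-cultures and name none for the neutrophils kept alone, so medium and co-culture cannot be told apart there either. All neutrophils came from bone marrow of C57/B6 mice, labelled wild type. PyMT stands for the polyoma virus middle T antigen, which drives a common mouse model of breast cancer, while the letters N and M are not explained in the sources used here. After co-culture, the neutrophils were sorted by FACS. Whether the neutrophils kept alone were sorted is not stated, so sorting and co-culture cannot be told apart in comparisons with them. No label ties a library, although named a biological replicate, to an animal, so p-values measure how far these libraries spread. Library names carry a number that 1 library of each group shares and that follows the replicate number, and what it stands for is not stated.

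As background, Schlafen proteins share an amino-terminal core whose fold resembles that of nucleases acting on transfer RNA, and several family members are induced by type I interferon. Slfn1 and Slfn2 encode short proteins made mainly of this core, Slfn3 and Slfn4 encode proteins of intermediate length, and Slfn5, Slfn8 and Slfn9 encode long proteins that add a helicase-like region. Slfn2 is known for keeping T cells and monocytes quiescent, since such cells of mice with the elektra mutation of Slfn2 die when they are activated. Slfn4 is known as a gene of the myeloid lineage that rises in activated macrophages.

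In neutrophils kept with PyMT-N cells all 7 genes rose over neutrophils kept alone, by log2 fold changes between 0.75 for Slfn2 and 6.28 for Slfn5, in a comparison where 29.4% of all tested genes rose and 53% changed in either direction. With PyMT-M cells 5 of them, Slfn3, Slfn4, Slfn5, Slfn8 and Slfn9, rose by 2.62 to 4.87, where 28.1% of all tested genes rose and 56.1% changed in either direction, while Slfn1 and Slfn2 did not pass the test. Slfn4 alone supplied 3.05% ± 0.253 of all counts with PyMT-N cells, 1.59% ± 0.0820 with PyMT-M cells and 0.182% ± 0.0169 alone (SD, n = 3 each).

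All 7 genes lie in a cluster of 263.8 kb on chromosome 11, at chr11:82951349-83215154 of mouse build GRCm38, by the GENCODE M21 annotation. From low to high coordinates the order is Slfn5 (chr11:82951349-82964840, + strand), Slfn9 (chr11:82978390-82991830, - strand), Slfn8 (chr11:83002158-83020810, - strand), Slfn2 (chr11:83065112-83070678, + strand), Slfn1 (chr11:83116849-83122670, + strand), Slfn4 (chr11:83175186-83190216, + strand) and Slfn3 (chr11:83191330-83215154, + strand). The end of Slfn4 and the start of Slfn3 stand 1113 bases apart. All 7 are annotated as protein-coding, and counts were summed per gene, so that exons and untranslated regions are not separated.

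RefSeq promoters of build GRCm38.p6, 250 bases before to 50 bases after the annotated start, were found for 7 of the 7 genes and searched on both strands for GAAANNGAA, a short core of the interferon-stimulated response element. This core was present in 8.56% of 32851 promoters of the same length and occurred at least 2 times in 0.624% of them. The 5 promoters below belong to the gene with the largest fitted rise in PyMT-N co-culture over alone (Slfn5), to the long near-copies Slfn8 and Slfn9, to the most abundant member (Slfn4) and to the member with the smallest rise in that comparison (Slfn2). Each is written 5′ to 3′ on the strand of its gene, with matches to the core in capitals.
Slfn5 at chr11:82951852-82952151, + strand: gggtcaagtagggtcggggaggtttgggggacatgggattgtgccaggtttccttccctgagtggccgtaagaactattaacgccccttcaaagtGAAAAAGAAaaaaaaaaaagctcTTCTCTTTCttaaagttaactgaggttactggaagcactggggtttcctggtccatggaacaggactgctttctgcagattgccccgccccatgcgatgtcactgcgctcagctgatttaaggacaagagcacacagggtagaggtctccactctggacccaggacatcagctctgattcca
Slfn8 at chr11:83020761-83021060, - strand: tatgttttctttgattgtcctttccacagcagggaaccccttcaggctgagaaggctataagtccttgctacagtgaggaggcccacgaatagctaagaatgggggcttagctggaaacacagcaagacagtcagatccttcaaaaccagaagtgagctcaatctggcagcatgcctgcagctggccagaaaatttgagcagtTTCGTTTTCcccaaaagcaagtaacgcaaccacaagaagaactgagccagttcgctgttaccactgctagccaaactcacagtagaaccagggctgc
Slfn9 at chr11:82991781-82992080, - strand: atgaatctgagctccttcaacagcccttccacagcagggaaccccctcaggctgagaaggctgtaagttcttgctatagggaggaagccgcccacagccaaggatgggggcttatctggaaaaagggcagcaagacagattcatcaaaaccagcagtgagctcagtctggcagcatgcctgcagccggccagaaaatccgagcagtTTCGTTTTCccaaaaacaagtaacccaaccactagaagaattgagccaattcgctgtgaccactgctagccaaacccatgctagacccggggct
Slfn4 at chr11:83174936-83175235, + strand: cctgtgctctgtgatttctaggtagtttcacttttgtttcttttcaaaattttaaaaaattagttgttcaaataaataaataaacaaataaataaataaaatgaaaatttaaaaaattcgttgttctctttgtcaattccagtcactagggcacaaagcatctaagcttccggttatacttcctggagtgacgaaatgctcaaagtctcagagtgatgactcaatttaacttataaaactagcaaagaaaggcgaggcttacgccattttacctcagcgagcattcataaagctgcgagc
Slfn2 at chr11:83064862-83065161, + strand: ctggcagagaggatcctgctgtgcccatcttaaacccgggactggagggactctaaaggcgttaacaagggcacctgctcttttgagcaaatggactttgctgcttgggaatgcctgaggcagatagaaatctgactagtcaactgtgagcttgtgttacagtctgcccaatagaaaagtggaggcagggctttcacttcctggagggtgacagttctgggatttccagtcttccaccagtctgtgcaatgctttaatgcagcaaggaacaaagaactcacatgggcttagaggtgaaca

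The Slfn5 promoter held 2 matches, which begin 155 and 132 bases before the RefSeq start and lie on opposite strands. The 2 annotations differ here, since this window lies inside the GENCODE span of Slfn5, which begins at chr11:82951349. Both matches therefore lie after the GENCODE start. Slfn8 and Slfn9 each held 1 match of the same letters, TTCGTTTTC, at 47 bases and 44 bases before the start, and their promoters were 82.7% identical. A further RefSeq start of Slfn8 covers the same match. No core match was found in these windows of Slfn1, Slfn2, Slfn3 or Slfn4, and 0 of the 7 genes held TTCNNNGAA, the core of the gamma-activated site, which 8.30% of all promoters held. Slfn14, a neighbour with 1 count in the 9 libraries, also held 1 GAAANNGAA match. A match is only a description of letters, and its absence from a window says nothing about a factor.

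Library totals ran from 1641049 to 4524563 counts. The smallest library, alone replicate 3, also stood apart in mitochondrial messenger RNA, which took 1.75% of its counts, where alone replicates 1 and 2 had 0.235% and 0.180%. The same share was 0.324% to 0.371% with PyMT-N cells and 0.525% to 0.769% with PyMT-M cells. The mitochondrial ribosomal RNA mt-Rnr2 took 2.65% to 4.005% of counts with PyMT-N cells, 6.12% to 11.1% with PyMT-M cells and 5.92% to 12.7% alone. The part of these shares in the Schlafen values was not tested. All 20 neutrophil markers were detected in each group. Their summed CPM of library totals was 22236 ± 2057 with PyMT-N cells, 23479.95 ± 2645 with PyMT-M cells and 38091 ± 6999 alone. Spreads are SD (n = 3 each). CPM of library totals, used for all marker values, is the count over the library total, without scaling between libraries. Normalised CPM, used for the Schlafen genes, is the count of a gene over the size of its library, after scaling between libraries. Marker values and normalised CPM are therefore not on the same scale. Epithelial markers summed to 4409 to 5053 with PyMT-N cells, 768 to 1149 with PyMT-M cells and 1020.3 to 1368 alone. Lcn2 is on both the epithelial and the neutrophil list. It averaged 1588, 837 and 1064 in the same order of groups, against mean epithelial sums of 4801, 1010 and 1153. Of 21 epithelial markers, 21 had a count with PyMT-N cells, 17 with PyMT-M cells (Cldn3, Cldn4, Esrp1 and Krt14 at 0) and 16 alone (Cldn4, Epcam, Esrp1, Krt14 and Krt19 at 0). Among them Epcam averaged 194 with PyMT-N cells, 2.26 with PyMT-M cells and 0 alone. Mesenchymal markers summed to 2199 to 2583 with PyMT-N cells, 4266 to 5288 with PyMT-M cells and 1414 to 1575 alone, with a count for 18, 17 and 16 of 22 genes in that order. Sparc, one of them, averaged 69.4 with PyMT-N cells, 435 with PyMT-M cells and 0.124 alone. Monocyte and macrophage markers, 12, 12 and 11 of 12 with a count (C1qa at 0 alone), summed to 1582 to 1865 with PyMT-N cells, 577 to 854 with PyMT-M cells and 1103 to 1551 alone. Fn1 is on both this list and the mesenchymal one. It averaged 898, 1.44 and 27.1 in the same order of groups, against mean monocyte and macrophage sums of 1703, 720 and 1264. B cell markers summed to 17.2 to 19.7 with PyMT-N cells (8 of 8 with a count), 91.2 to 146 with PyMT-M cells (6 of 8) and 473 to 1044 alone (8 of 8). Eosinophil and basophil markers summed to 21.7 to 27.2 with PyMT-N cells and 16.5 to 19.0 with PyMT-M cells (9 of 10 in both, Epx at 0), and to 342 to 444 alone (10 of 10). T and NK cell markers reached at most 2.43 with PyMT-N cells, 1.16 with PyMT-M cells and 6.30 alone, with at least 6 of 9 at 0 in each group. Of 7 erythroid markers, 1 had a count, with PyMT-M cells. The 25 genes used broadly by leukocytes summed to 15103 ± 1242 with PyMT-N cells, 12962 ± 1994 with PyMT-M cells and 25443 ± 950.4 alone. These marker sums moved with the groups, and their part in the Schlafen values below was not tested. In bulk samples, fewer cells of a type and less RNA per cell cannot be told apart.

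Levels between members were compared per kilobase of exon. Slfn4 stood first in neutrophils kept with PyMT-N cells, with 7564 ± 761 normalised CPM per kb (SD, n = 3), ahead of Slfn2 with 849.7 ± 7.14 and Slfn1 with 341 ± 61.2. Slfn8 with 96.6 ± 19.6 and Slfn5 with 71.6 ± 10.4 overlapped there, and Slfn9 with 8.93 ± 1.96 and Slfn3 with 3.39 ± 0.881 stood last. The order was the same with PyMT-M cells, with 3388 ± 104 for Slfn4, 449 ± 65.7 for Slfn2 and 148 ± 30.4 for Slfn1, and no neighbours in it overlapped. There Slfn8 had 48.0 ± 3.47, Slfn5 22.3 ± 1.56, Slfn9 7.50 ± 1.91 and Slfn3 1.68 ± 0.442. In neutrophils kept alone the means fell in the same order, but Slfn4 with 553 ± 52.1 and Slfn2 with 508 ± 132 overlapped. The step to Slfn8 was wide there, with 137 ± 30.7 for Slfn1 and 4.55 ± 1.90 for Slfn8. Slfn5 with 0.978 ± 0.329 and Slfn9 with 0.751 ± 0.410 overlapped, and Slfn3 had 1 count in the 3 alone libraries together.

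**Figure D1:**
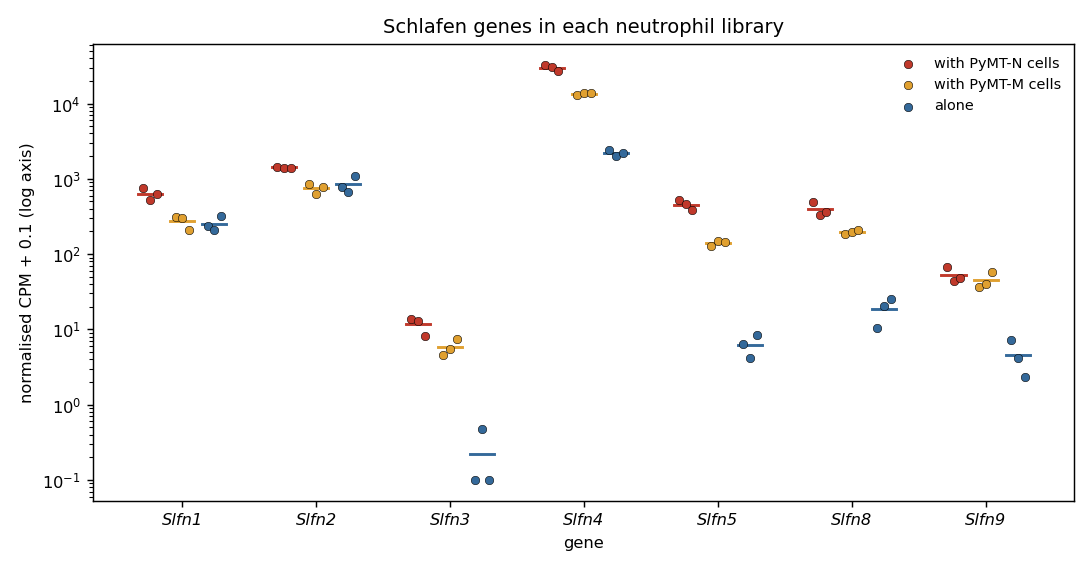
Normalised CPM plus 0.1, on a log axis, of each Schlafen gene in each library, coloured by group; points are libraries and bars are group means. Slfn4 lies between 26757 and 32734 with PyMT-N cells and between 1995 and 2407 alone, while Slfn2 with PyMT-M cells overlaps Slfn2 alone.

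As a whole the 7 genes took 3.35% ± 0.263 of counts with PyMT-N cells, 1.75% ± 0.0754 with PyMT-M cells and 0.276% ± 0.0266 alone (SD, n = 3 each). Slfn4 ranked 1 of all genes by count in PyMT-N replicates 2 and 3 and 2 in replicate 1, behind the mitochondrial ribosomal RNA mt-Rnr2. It ranked 4 in each PyMT-M library and between 35 and 46 in the alone libraries. The make-up of the family also differed between groups. Per kilobase of exon, Slfn4 held 84.6% ± 1.10 of the family with PyMT-N cells, 83.3% ± 1.77 with PyMT-M cells and 46.4% ± 5.85 alone. Slfn2 held 9.56% ± 0.809, 11.05% ± 1.69 and 41.8% ± 4.84 in the same order of groups. The co-cultures overlapped in both shares, and every alone library lay outside their range.

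**Figure D2:**
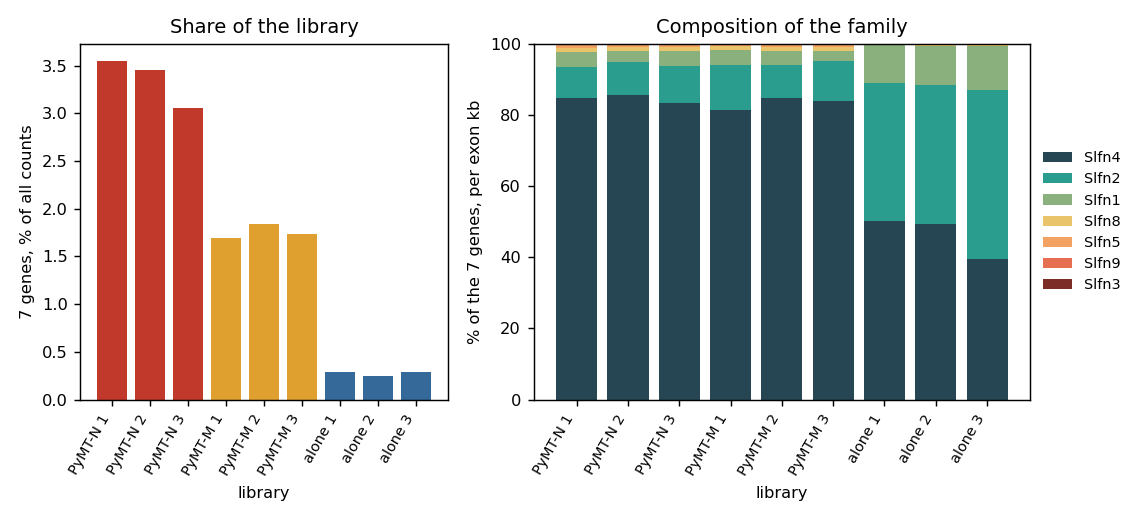
Left, the 7 Schlafen genes as a percentage of all counts of each library; right, the share of each gene among the 7 per kilobase of exon, in the same libraries. The family takes 3.06% to 3.55% of counts with PyMT-N cells and 0.245% to 0.294% alone, and Slfn4 fills 83.4% to 85.6% of the columns with PyMT-N cells, 81.4% to 84.8% with PyMT-M cells and 39.6% to 50.2% alone.

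Among the short members, Slfn1, known from growth control in thymocytes, had 753, 525 and 631 normalised CPM with PyMT-N cells, 314, 304 and 211 with PyMT-M cells and 236, 209 and 319 alone. The PyMT-N libraries lay above all others, and the PyMT-M libraries lay among the alone libraries. The log2 fold change of Slfn1 was 1.33 ± 0.21 (SE, edgeR quasi-likelihood test, adjusted p = 9.8e-05) for PyMT-N co-culture over alone and 1.20 ± 0.21 (adjusted p = 0.000334) for PyMT-N over PyMT-M co-culture. It was 0.13 ± 0.21 (adjusted p = 0.619) for PyMT-M co-culture over alone, with a 95% interval from -0.28 to 0.55.

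Slfn2, the quiescence gene of the family, had 1426, 1413 and 1402 normalised CPM with PyMT-N cells, 844, 628 and 768 with PyMT-M cells and 785, 664 and 1089.6 alone. The PyMT-N libraries were nearly equal, with a coefficient of variation of 0.840%, and lay above all others, while PyMT-M and alone libraries overlapped. Slfn2 rose by 0.75 ± 0.18 for PyMT-N co-culture over alone (edgeR adjusted p = 0.00308) and by 0.92 ± 0.18 for PyMT-N over PyMT-M co-culture (adjusted p = 0.000982). For PyMT-M co-culture over alone its log2 fold change was -0.18 ± 0.18 (adjusted p = 0.428), with a 95% interval from -0.53 to 0.18. The highest alone value was that of alone replicate 3, and without that library the log2 fold change was 0.05 (adjusted p = 0.799).

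Among the members of intermediate length, Slfn4 had 32734, 30459 and 26757 normalised CPM with PyMT-N cells, 12954, 13701 and 13634 with PyMT-M cells and 2407, 1995 and 2171 alone. The 3 groups were fully separate, with PyMT-N cells highest. Slfn4 rose by 3.77 ± 0.14 for PyMT-N co-culture over alone (edgeR adjusted p = 3.28e-11), by 2.62 ± 0.13 for PyMT-M co-culture over alone (adjusted p = 3.9e-09) and by 1.16 ± 0.13 for PyMT-N over PyMT-M co-culture (adjusted p = 5.01e-06). By p it stood at rank 12 of 12012 tested genes in both comparisons with neutrophils kept alone, which share those 3 libraries.

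Slfn3, a near-copy of Slfn4 that has been studied in T cells and in gut epithelium, was the least abundant member. It had 48, 47 and 38 counts with PyMT-N cells, 21, 28 and 28 counts with PyMT-M cells and 0, 1 and 0 counts alone. Each co-culture library thus lay above each alone library. Scaled for library size, the summed counts stood in a ratio of 70.6 (95% interval 12.5 to 2810, counting error alone) for PyMT-N co-culture over alone and of 35.2 (6.14 to 1409) for PyMT-M co-culture over alone. The fitted log2 fold changes were 5.88 ± 0.96 (edgeR adjusted p = 0.000131) and 4.87 ± 1.11 (adjusted p = 0.00191). Because these fits rest on 1 alone count, they rose to 8.38 and 7.37 without alone replicate 2, which held it.

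Slfn3 did not pass the test between the co-cultures, at 1.01 ± 0.38 (edgeR adjusted p = 0.0512, 95% interval 0.27 to 1.75), although the PyMT-N libraries, at 13.7, 12.9 and 8.14 normalised CPM, lay above the PyMT-M libraries, at 4.49, 5.32 and 7.42. It passed when PyMT-N replicate 3 (log2 fold change 1.23, adjusted p = 0.0387) or alone replicate 3 (1.00, adjusted p = 0.028) was left out. The coding sequences of Slfn3 and Slfn4 were 91.6% identical, and 15.99% of the 50-base words of Slfn3 transcripts occurred in other genes, 7.39% in Slfn4. Slfn3 made up 0.0379% of the counts of both genes with PyMT-N cells (exact 95% interval 0.0317% to 0.0449%), 0.0418% with PyMT-M cells (0.0330% to 0.0522%) and 0.00731% alone (0.000185% to 0.0407%). Whether these shares differ, and how many of the Slfn3 counts are Slfn4 reads assigned to the near-copy, was not tested.

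Among the long members, Slfn5 had the largest rise in each of the 3 comparisons. It had 517, 458 and 385 normalised CPM with PyMT-N cells, 129.85, 149 and 145 with PyMT-M cells and 6.21, 4.09 and 8.25 alone. The 3 groups were fully separate. The rise of Slfn5 was 6.28 ± 0.28 for PyMT-N co-culture over alone (edgeR adjusted p = 2.16e-10), 4.60 ± 0.28 for PyMT-M co-culture over alone (adjusted p = 1.83e-08) and 1.68 ± 0.18 for PyMT-N over PyMT-M co-culture (adjusted p = 4.21e-06). It rested on 36 counts in the alone libraries together, against 5279 with PyMT-N cells and 1936 with PyMT-M cells. Slfn5os, an antisense gene that overlaps Slfn5, had 0 counts in all 9 libraries.

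Slfn8, another long member, had 486, 333 and 367 normalised CPM with PyMT-N cells, 183, 196 and 211 with PyMT-M cells and 10.2, 20.1 and 25.5 alone. Its groups did not overlap either, and PyMT-N cells were again highest. Slfn8 rose by 4.46 ± 0.28 for PyMT-N co-culture over alone (edgeR adjusted p = 7.81e-09), by 3.45 ± 0.28 for PyMT-M co-culture over alone (adjusted p = 2.34e-07) and by 1.01 ± 0.21 for PyMT-N over PyMT-M co-culture (adjusted p = 0.00153).

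Slfn9, the near-copy of Slfn8, with 92.7% identical coding bases, had 66.5, 44.4 and 48.8 normalised CPM with PyMT-N cells, 36.4, 40.1 and 57.7 with PyMT-M cells and 7.10, 4.09 and 2.25 alone. Both co-cultures lay above the alone libraries and overlapped each other. Slfn9 rose by 3.47 ± 0.41 for PyMT-N co-culture over alone (edgeR adjusted p = 4.86e-06) and by 3.21 ± 0.41 for PyMT-M co-culture over alone (adjusted p = 1.45e-05). These rises rested on 30 counts in the alone libraries together, against 623 with PyMT-N cells and 599 with PyMT-M cells. The difference between the co-cultures was 0.26 ± 0.26 (adjusted p = 0.483), with a 95% interval from -0.25 to 0.77. Of the 50-base words of Slfn8 and Slfn9 transcripts, 14.6% and 11.9% also occurred in other genes, chiefly in the pseudogene Slfn10-ps, so reads could be split between them.

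**Figure D3:**
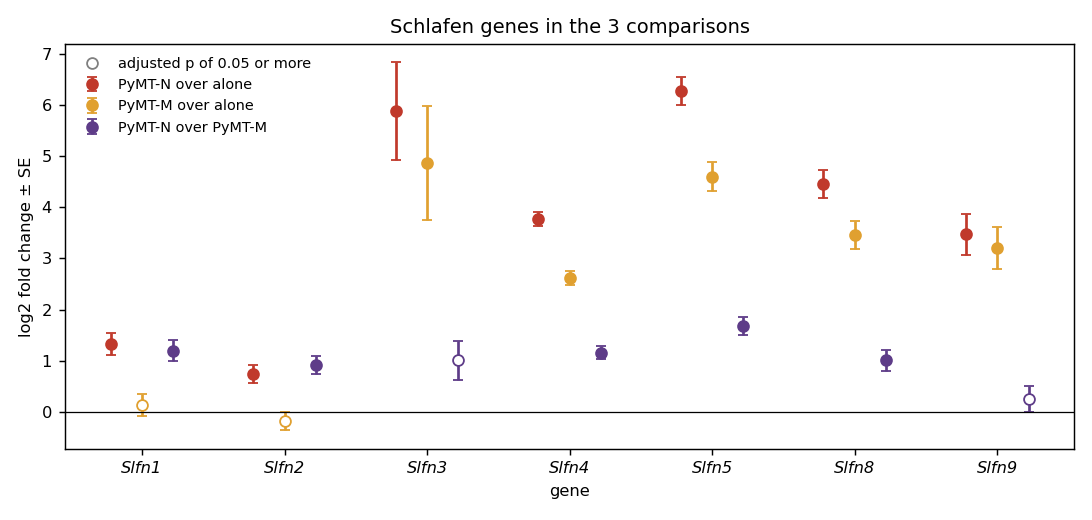
Log2 fold change with its SE for each Schlafen gene in PyMT-N co-culture over alone, PyMT-M co-culture over alone and PyMT-N over PyMT-M co-culture; filled points have an adjusted p under 0.05. Slfn5 stands at 6.28 and 4.60 over alone and Slfn3, with 1 alone count, at 5.88 and 4.87, while Slfn1 and Slfn2 over alone lie near 0 with PyMT-M cells.

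Counted together, 7 of 7 members rose in PyMT-N co-culture over alone, where 29.4% of the 12012 tested genes rose. The median log2 fold change was 3.77 for the members and 0.12 for all tested genes. In PyMT-M co-culture over alone, 5 of 7 rose, where 28.1% of tested genes rose, with medians of 3.21 and -0.03. In PyMT-N over PyMT-M co-culture, 5 of 7 rose, where 19.1% of tested genes rose and 34.7% changed in either direction, with medians of 1.01 and -0.02. In each of the 3 comparisons 0 members fell, also at an unadjusted p under 0.05 and by DESeq2 and limma-voom, where 23.6%, 27.9% and 15.5% of tested genes fell in that order. Every library of the first-named group was above every library of the other for 7, 5 and 6 members, against 33.4%, 31.4% and 27.3% of tested genes. Slfn3 and Slfn9 reached the test through the co-cultures, since 5 of the 7 would have passed the filter on low counts on the alone libraries by themselves. The comparisons with neutrophils kept alone share the same 3 libraries.

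Scaling changed the call or the sign of members near 0, and the call of Slfn8 between the co-cultures. Scaling to 25 genes used broadly by leukocytes moved the median of all genes to 1.16, 1.41 and -0.45 in the 3 comparisons, and scaling to library totals moved it to 0.41, 0.44 and -0.23. The share of rises among all calls then became 87.9%, 96.3% and 29.0% with the leukocyte genes and 67.1%, 70.5% and 40.4% with library totals, against 55.5%, 50.2% and 55.2%. With leukocyte-gene scaling, values were also set against the median of all tested genes. Relative to that median, Slfn1 stood at 0.20 and Slfn2 at -0.09 for PyMT-M co-culture over alone. Slfn8 stood at 0.98 for PyMT-N over PyMT-M co-culture. Under that scaling itself Slfn1 and Slfn2 passed as higher with PyMT-M cells over alone, at 1.61 and 1.32 (edgeR adjusted p = 5.41e-07 and 3.57e-06). Between the co-cultures Slfn8 at 0.54 no longer passed (adjusted p = 0.0617), and Slfn9 turned to -0.22 (adjusted p = 0.584). Slfn2 still passed there, at 0.48 (adjusted p = 0.0446).

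Ratios within a library do not depend on scaling, but they do depend on the base. Slfn2, the base used here, itself rose by 0.75 for PyMT-N co-culture over alone and by 0.92 for PyMT-N over PyMT-M co-culture. In these comparisons a ratio thus shows a gene relative to Slfn2, not its own change. With Slfn2 as the base, the log2 ratio of Slfn4 counts was 4.401 ± 0.14 with PyMT-N cells, 4.18 ± 0.25 with PyMT-M cells and 1.40 ± 0.35 alone (SD, n = 3 each). Slfn4 thus gained 3.00 on Slfn2 with PyMT-N cells and 2.78 with PyMT-M cells, and the co-cultures overlapped. Slfn5 gained most, with log2 ratios to Slfn2 of -1.65 ± 0.20 with PyMT-N cells, -2.39 ± 0.31 with PyMT-M cells and -7.06 ± 0.19 alone. It was also the only one of the 6 ratios with every PyMT-N library above every PyMT-M library, with group means 0.74 apart. Slfn8 gained 3.70 with PyMT-N and 3.64 with PyMT-M cells over alone, and Slfn9 gained 2.82 and 3.50. The Slfn9 ratio was -0.67 for PyMT-N minus PyMT-M co-culture, with overlap, where the log2 fold change of Slfn9 itself was 0.26 and did not pass. The Slfn1 ratio was on average 0.56 higher with PyMT-N cells than alone, without overlap, and 0.28 higher with PyMT-M cells than alone, with overlap. Where groups did not overlap, a two-sided exact permutation test gave p = 0.1, its minimum for 3 against 3 libraries, or 0.15 after Benjamini-Hochberg adjustment over the 18 ratio comparisons.

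**Figure D4:**
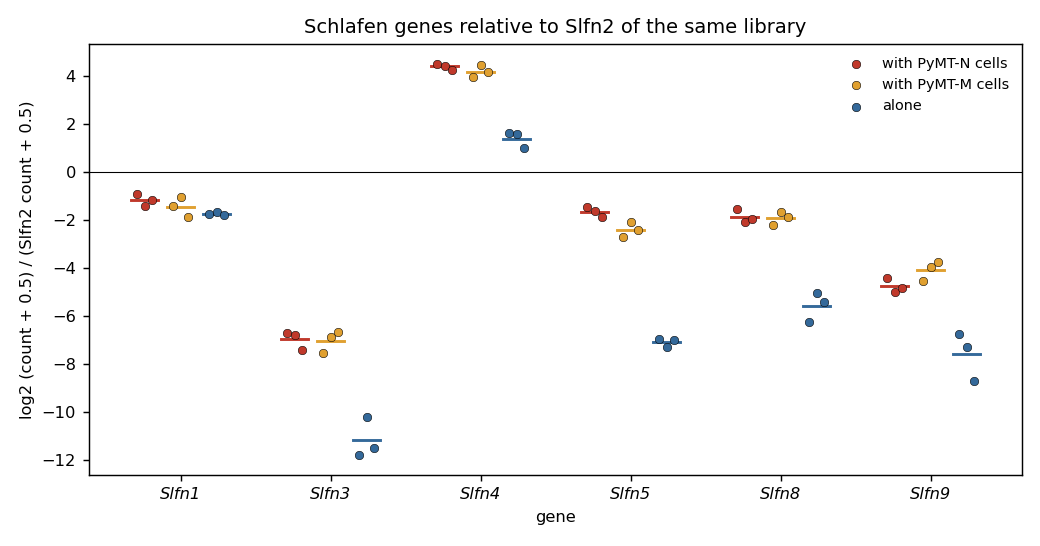
Log2 ratio of each gene's count to the Slfn2 count of the same library, with 0.5 added to both counts, by group; points are libraries and bars are group means. Slfn4, Slfn5, Slfn8, Slfn9 and Slfn3 lie higher in every co-culture library than in every alone library, and Slfn1 with PyMT-M cells overlaps Slfn1 alone.

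Other genes of the locus were read beside the members. The pseudogene Slfn10-ps, inside the cluster, averaged 29.7 ± 9.02 normalised CPM with PyMT-N cells, 24.2 ± 9.63 with PyMT-M cells and 16.97 ± 5.40 alone (SD, n = 3 each), and its groups overlapped. Its log2 fold changes of 0.75 ± 0.38, 0.43 ± 0.38 and 0.32 ± 0.33 did not pass the test (edgeR adjusted p = 0.11, 0.36 and 0.485). Slfn5os and Slfnl1 had 0 counts. Around and between the Schlafen genes, the 6 other tested genes read here (Nle1, Gm11425, Gm20234, Gm48467, AI662270 and Gm11427) had group means of at most 28.1 normalised CPM. Of these 6, 0 rose in PyMT-N co-culture over alone, also at an unadjusted p under 0.05, and AI662270 fell by 1.69 (edgeR adjusted p = 0.0035). In PyMT-M co-culture over alone, Nle1 rose by 1.56 (adjusted p = 0.0247) and Gm11427 by 2.63 (adjusted p = 0.000337). Whether the Schlafen genes differ from their neighbours was not tested.

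**Figure D5:**
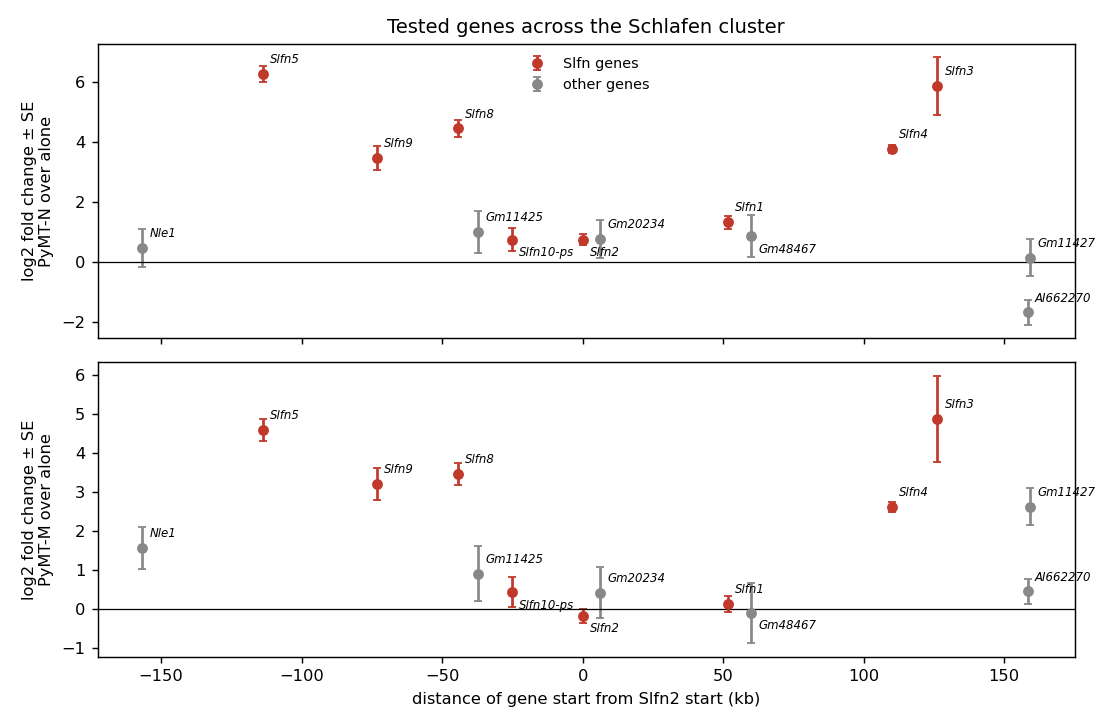
Log2 fold change with its SE of 14 tested genes in and around the Schlafen cluster against the distance of each gene start from that of Slfn2, for PyMT-N co-culture over alone (top) and PyMT-M co-culture over alone (bottom). Slfn5, Slfn9 and Slfn8 on one side and Slfn4 and Slfn3 on the other stand between 3.47 and 6.28 in the top panel, with Slfn2 and Slfn1 between them at 0.75 and 1.33.

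For each member, the tested genes of most similar profile were found by the root mean square distance between centred log2 CPM over the 9 libraries, among 6193 candidates. For Slfn4 these were Rnf213 (distance 0.20), Wdr36 (0.22) and Oas1g (0.26). For Slfn5 they were Ifit1 (0.22), Isg15 (0.36) and Tpm1 (0.37), and for Slfn8 they were Herc6 (0.28), Cmpk2 (0.30) and Oasl2 (0.30). For Slfn1 they were Relb (0.19), Nfkb2 (0.19) and Irf1 (0.19), whose means were highest with PyMT-N cells. Relb averaged 86.7 normalised CPM with PyMT-N cells, 36.3 with PyMT-M cells and 43.4 alone. Nearest to Slfn2 were Gnb1 (0.17), Etf1 (0.18) and Arf4 (0.19), and nearest to Slfn3 were Zmat3 (0.37), Slfn4 (0.40) and Slfn8 (0.41). Slfn9 was nearest to Ect2 (0.32), Mif (0.35) and Fads3 (0.38). Ect2 averaged 73.7 normalised CPM with PyMT-N cells, 73.7 with PyMT-M cells and 5.82 alone. Within the family, Slfn1 and Slfn2 stood 0.32 apart and Slfn2 and Slfn5 2.37 apart.

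Genes of the interferon pathway, through which Schlafen genes are known to be induced, were read from a list. None of its 11 interferon genes had enough counts to be tested. Ifnb1, which encodes interferon beta, had 5, 5 and 7 counts with PyMT-N cells, 0, 1 and 0 with PyMT-M cells and 0 in each alone library. It was seen in every PyMT-N library, but a count of 0 allows up to 3 counts in a library, and it was not tested. Of the 6 receptor genes, 3 fell in PyMT-N co-culture over alone and 6 fell in PyMT-M co-culture over alone, and 4 rose in PyMT-N over PyMT-M co-culture, where 23.6% and 27.9% of all tested genes fell and 19.1% rose. With scaling to leukocyte genes the signs over alone turned positive for Ifnar1, Ifngr1, Ifngr2 and Il10rb with PyMT-N cells. Of these, Ifnar1, Ifngr2 and Il10rb then passed as higher (edgeR adjusted p = 0.0139, 0.000615 and 0.0168). With PyMT-M cells the signs turned positive for Ifnar1, Ifngr2, Ifnlr1 and Il10rb, which did not pass. Between the co-cultures Ifnar1 and Ifngr1 no longer passed under that scaling (0.35 and 0.29, edgeR adjusted p = 0.213 and 0.328). Ifnlr1 then passed there as lower (-0.83, adjusted p = 0.0163). Ifnar2, a chain of the type I receptor, fell by 1.73 with PyMT-N cells (edgeR adjusted p = 6.24e-06) and fell by 1.85 with PyMT-M cells (adjusted p = 4.74e-06), where leukocyte-gene scaling gave -0.36 and ended the call (adjusted p = 0.224). Ifngr1, a chain of the interferon gamma receptor, fell by 1.03 with PyMT-N cells (edgeR adjusted p = 0.00127) and fell by 1.75 with PyMT-M cells (adjusted p = 1.75e-05). With leukocyte-gene scaling its log2 fold change was 0.0108 with PyMT-N cells and -0.28 with PyMT-M cells, and neither passed (adjusted p = 0.976 and 0.3).

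Among the 13 kinases, STATs and interferon regulatory factors, 5 rose and 2 fell in PyMT-N co-culture over alone, 4 rose and 7 fell in PyMT-M co-culture over alone, and 9 rose and 0 fell in PyMT-N over PyMT-M co-culture. Of all tested genes, 29.4% rose and 23.6% fell in the first comparison, 28.1% rose and 27.9% fell in the second, and 19.1% rose and 15.5% fell in the last. Stat2 and Irf9, which are parts of the type I interferon transcription complex, averaged 825 ± 77.3 and 456 ± 22.9 normalised CPM with PyMT-N cells, 333 ± 28.6 and 236 ± 39.2 with PyMT-M cells and 90.1 ± 10.3 and 102 ± 9.95 alone. Irf7, a factor that amplifies interferon responses, rose by 5.01 with PyMT-N cells over alone (edgeR adjusted p = 1.58e-08) and by 3.44 with PyMT-M cells over alone (adjusted p = 1.28e-06). Irf8 fell by 2.66 with PyMT-N cells (adjusted p = 1e-06) and fell by 2.63 with PyMT-M cells (adjusted p = 1.64e-06). This factor also marks dendritic cells. Of their 11 markers 10 had a count in each group (Siglech at 0 with PyMT-N cells, Flt3 with PyMT-M cells, Xcr1 alone). These markers summed to 141 to 190 CPM of library totals with PyMT-N cells, 115 to 145 with PyMT-M cells and 434 to 793 alone. The part of those cells was not tested. Irf1 rose by 1.51 (adjusted p = 1.35e-05) with PyMT-N cells and had a log2 fold change of -0.01 (adjusted p = 0.966) with PyMT-M cells. Jak2 was 2.72 higher in PyMT-N than in PyMT-M co-culture (adjusted p = 2.7e-05). Its log2 fold change over alone was -2.42 with PyMT-M cells, and 0.30 with PyMT-N cells, which did not pass (edgeR adjusted p = 0.452).

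Of 8 feedback regulators of interferon signalling, 5 rose and 2 fell with PyMT-N cells over alone, and 3 rose and 2 fell with PyMT-M cells over alone. Between the co-cultures 6 rose and 0 fell. The shares of all tested genes that rose and fell were 29.4% and 23.6% for PyMT-N over alone, 28.1% and 27.9% for PyMT-M over alone, and 19.1% and 15.5% between the co-cultures. Usp18, the protease that removes Isg15 and restrains the receptor, rose by 5.18 (edgeR adjusted p = 1.98e-07) with PyMT-N cells and by 3.66 (adjusted p = 8.7e-06) with PyMT-M cells over alone. Socs1 was 2.95 higher in PyMT-N than in PyMT-M co-culture (adjusted p = 7.06e-06). Ptpn6, a phosphatase that is also among the 25 leukocyte genes, fell by 1.71 with PyMT-M cells over alone (edgeR adjusted p = 6.93e-06), and with that scaling its log2 fold change was -0.25 and did not pass (adjusted p = 0.258).

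The downstream genes moved nearly all one way. Of 35 tested interferon-stimulated genes, 33 rose and 0 fell in PyMT-N co-culture over alone, with a median of 3.86, and 32 rose and 1 fell in PyMT-M co-culture over alone, with a median of 2.76. In PyMT-N over PyMT-M co-culture 31 rose and 0 fell, with a median of 1.28. In these comparisons 29.4%, 28.1% and 19.1% of all tested genes rose and 23.6%, 27.9% and 15.5% fell. Ifit3, an antiviral protein, averaged 1154 ± 151 normalised CPM with PyMT-N cells, 701 ± 40.9 with PyMT-M cells and 7.32 ± 1.66 alone (SD, n = 3 each). Cxcl10, a chemokine for T cells, averaged 843 ± 136 with PyMT-N cells, 60.3 ± 18.2 with PyMT-M cells and 3.10 ± 1.17 alone. Rsad2, which encodes the antiviral enzyme viperin, rose by 6.99 with PyMT-N cells (edgeR adjusted p = 9.92e-11) and by 5.41 with PyMT-M cells (adjusted p = 3.67e-09) over alone. Samhd1 fell by 0.59 with PyMT-M cells (edgeR adjusted p = 0.00423). Its log2 fold change was -0.09 with library totals, which did not pass (adjusted p = 0.66), and 0.89 with leukocyte-gene scaling (adjusted p = 8.52e-05). The medians of the 7 Schlafen genes, 3.77, 3.21 and 1.01, stand beside 3.86, 2.76 and 1.28 for this list, and no test of a difference was made.

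Because Slfn2 is known to shield transfer RNA from cleavage in T cells, genes of transfer RNA cleavage, protection and processing were read as well. Of 12 tested, 5 rose and 1 fell in PyMT-N co-culture over alone, 6 rose and 2 fell in PyMT-M co-culture over alone, and 2 rose and 4 fell in PyMT-N over PyMT-M co-culture. Of all tested genes, 29.4% rose and 23.6% fell in the first of these comparisons, 28.1% rose and 27.9% fell in the second, and 19.1% rose and 15.5% fell in the last. Nsun2, a methyltransferase, rose by 1.83 with PyMT-N cells (edgeR adjusted p = 0.000133) and by 2.63 with PyMT-M cells (adjusted p = 4.72e-06) over alone. Ddx1, a helicase of the ligase complex, rose by 1.89 with PyMT-N cells (edgeR adjusted p = 0.000841) and by 2.79 with PyMT-M cells (adjusted p = 2.2e-05) over alone. Rnh1, the inhibitor of angiogenin-type ribonucleases, fell by 0.75 with PyMT-N cells (edgeR adjusted p = 0.0128) and fell by 1.02 with PyMT-M cells (adjusted p = 0.00171) over alone. With PyMT-N cells the call was lost without alone replicate 2 (-0.42, adjusted p = 0.135), without PyMT-N replicate 2 (-0.68, adjusted p = 0.0566), with library totals (-0.47, adjusted p = 0.109) and with leukocyte-gene scaling (0.27, adjusted p = 0.376). Zc3h12a, an endoribonuclease, was 2.11 higher in PyMT-N than in PyMT-M co-culture (adjusted p = 0.000248).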

How the data were processed

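The deposited values are raw read counts per Ensembl gene, made by the authors. Libraries were built from 150 pg of RNA, per the labels' protocols, and reads were aligned with STAR, with GRCm38 and mm10 as the named builds (submitters' processing notes). The counter, its annotation release and its use of strand are not stated by the sources used here. Genes with near-copies, overlaps or antisense partners are therefore uncertain. Totals of 1641049 to 4524563 counts limit genes of few counts, and count intervals cover counting error only.

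Of 54532 genes, 12012 passed filterByExpr of edgeR 4.0.16 (minimum count 10, total 15). They were scaled by TMM and fitted in 1 model of group means over all 9 libraries (R 4.3.3), with robust quasi-likelihood F tests. P-values were adjusted by Benjamini-Hochberg across the 12012 genes, and calls needed an adjusted p under 0.05. SE was taken as the absolute log2 fold change over the root of F. Ratios used exact permutation tests (scipy 1.17.1), sequences were aligned with Biopython 1.88, and the code was tested on simulated data.

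Alternatives were relative log expression, upper quartile, library-total and leukocyte-gene scaling, no filter, at least 50 counts in 3 libraries, DESeq2 1.42.0, limma-voom (limma 3.58.1), no robust moderation, legacy estimation, only the compared groups, a replicate block, stricter thresholds, pseudocounts of 1 and 5, coding length and leaving out each library. The members and the 6 pathway and 9 marker lists were chosen with earlier results of these data known. Named genes were the members, other Slfn symbols, the 3 genes nearest each member (mean log2 CPM of 4 or more), interferons, receptors, Stat2, Irf7, Irf9, Usp18 and, from each other list, the 3 with the smallest p on the commoner side plus 1 from the opposite side. Neighbours in the cluster and marker genes were chosen after their values were seen. Some genes that the rule named are not reported here.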

Additional observations from a re-analysis of the deposited data

How the results depend on the processing

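Of 480 member fold changes under alternatives, 468 kept their direction and their side of the threshold, and 14 of 21 member results did so throughout. For PyMT-M over alone, Slfn1 passed at 0.65 with library totals and 1.61 with leukocyte-gene scaling, and Slfn2 turned to 0.33 and 1.32 under these, and ranged from -0.32 to 0.0514 over left-out libraries. For PyMT-N over PyMT-M, leukocyte-gene scaling gave 0.54 for Slfn8, which no longer passed, and -0.22 for Slfn9. Slfn3 passed there at 1.00 with only the compared groups, and ranged from 0.86 to 1.23 over left-out libraries. A minimum log2 fold change of 1 removed the Slfn2 calls at 0.75 (PyMT-N over alone) and 0.92 (PyMT-N over PyMT-M). With at least 50 counts in 3 libraries Slfn3 was not tested. The Slfn3 to Slfn2 ratio for PyMT-N minus PyMT-M was -0.0298 with a pseudocount of 5 and ranged from -0.19 to 0.29 over left-out libraries, and that of Slfn8 from -0.0927 to 0.18. The cause of these shifts was not tested. Leukocyte-gene scaling turned PyMT-N over alone for Ifnar1 (0.66), Ifngr1 (0.0108), Ifngr2 (0.97), Il10rb (0.76), Pias1 (0.19) and Rnh1 (0.27), and PyMT-M over alone for Ifnar1 (0.31), Ifngr2 (0.25), Ifnlr1 (0.15), Il10rb (0.0158), Jak1 (0.24) and Samhd1 (0.89). Ifngr2 with PyMT-N cells over alone was 0.21 with library totals and ranged from -0.15 to 0.0505 over left-out libraries, and Il10rb was 0.0382 with limma-voom and ranged from -0.44 to 0.0102. Ifnar2 for PyMT-N over PyMT-M was -0.10 with library totals and -0.34 with leukocyte genes. Over all genes, leukocyte-gene scaling gave 6745 rises and 926 falls (PyMT-N over alone), 7596 and 295 (PyMT-M over alone) and 1433 and 3506 (PyMT-N over PyMT-M), against 3529 and 2832, 3381 and 3354, and 2298 and 1865. Library totals gave 1913 falls for PyMT-M over alone, and an adjusted p under 0.01 gave 1093 falls for PyMT-N over PyMT-M. Per coding kilobase, in the order PyMT-N, PyMT-M and alone, normalised CPM was 16602, 7436 and 1213 for Slfn4, 629, 274 and 252 for Slfn1, 1247, 658 and 746 for Slfn2, 171, 53.2 and 2.33 for Slfn5, 145, 72.0 and 6.81 for Slfn8, and 19.5, 16.4 and 1.64 for Slfn9. Slfn3 had 6.03 with PyMT-N and 2.99 with PyMT-M cells. Slfn5 then stood above Slfn8 with PyMT-N cells.

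No pairing by replicate number was visible. Deviations of same-numbered libraries correlated between -0.078 and 0.029, and those of differently numbered libraries between -0.062 and 0.068. With 3 libraries a group, these values cannot tell whether same-numbered libraries share a source. With the replicate block, 7, 5 and 5 members rose, as without it, and Slfn3 for PyMT-N over PyMT-M was 1.01 and again did not pass.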
